A study of Mus musculus with 4 samples.

Results

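The genes described here are 5 nuclear receptors and 3 proteins that nuclear receptors recruit: *Rora*, *Nr3c1*, *Rara*, *Rxra* and *Rxrb* among the receptors, the corepressors *Nrip1* and *Ncor1*, and the coactivator *Ncoa1*. They were picked by symbol and are 8 of the 24421 genes listed. *Nrip1* stood among the differentially expressed transcription factors of the study, so the comparison of genotypes is given for these genes as a description, with no test of its own. The study made its calls with DESeq2 on read counts and re-estimated the P-values. The fit on FPKM used below is not the same test. RNA was sequenced from CD69+DP thymocytes, which are CD4+CD8+ cells of the thymus that carry the early activation marker CD69, sorted from C57BL/6 mice aged 6 weeks. The 2 control samples came from mice with floxed alleles of *Foxa1* and of *Foxa2* and no Cre transgene, and the 2 Foxa1/2cKO samples from mice with the same floxed alleles and the CD4Cre transgene, in which the *Cd4* promoter drives the recombinase in T-lineage cells. The controls therefore carry the floxed alleles too, but not Cre, so an effect of Cre itself cannot be told apart from that of the deletion. Each sample came from mice of its own, with 2 mice of a genotype used per sort, and whether a sample is 1 mouse or a pool is not clear from the methods. An n of 2 therefore counts samples, and P-values measure the spread between these samples only.

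Nuclear receptors are transcription factors with a DNA-binding domain and a pocket for a small lipophilic ligand. RAR and RXR proteins bind DNA together as heterodimers and respond to retinoic acid, RORα binds as a monomer to a single half-site, and the glucocorticoid receptor is held by chaperones in the cytoplasm until its hormone binds. Without an activating ligand many receptors hold corepressors of the NCoR family with their histone deacetylase partner, and with ligand they recruit p160 coactivators, whereas Nrip1, also known as RIP140, is a corepressor that binds ligand-activated receptors. In thymocytes this family is best known through Nr4a1, which is induced by TCR signals, and through the death of DP cells exposed to glucocorticoid.

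The promoter windows shown are of the genes with the largest fitted difference in log2(FPKM + 1), *Nrip1* upwards and *Rxra* downwards. By ratio of means the decrease of *Rora* was larger, at 0.653 against 0.726 for *Rxra*. Promoters are shown because Foxa proteins bind DNA through a forkhead domain, and RAR, RXR and ROR proteins bind at the half-site AGGTCA. Each window is the 250 bases before a RefSeq start site on GRCm38.p6 (the assembly of mm10), written 5′ to 3′ on the strand of the gene, with every match to a searched motif in capitals. Neither *Nrip1* window, both on the minus strand of chromosome 16, held any match, so both are all in lower case.
*Nrip1*, chr16:76373828-76374077, minus strand: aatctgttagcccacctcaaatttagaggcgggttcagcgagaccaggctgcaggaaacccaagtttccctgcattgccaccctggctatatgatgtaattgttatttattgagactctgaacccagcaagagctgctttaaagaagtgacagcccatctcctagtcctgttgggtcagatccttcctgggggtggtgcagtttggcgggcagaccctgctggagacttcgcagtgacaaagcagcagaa
*Nrip1*, chr16:76373050-76373299, minus strand: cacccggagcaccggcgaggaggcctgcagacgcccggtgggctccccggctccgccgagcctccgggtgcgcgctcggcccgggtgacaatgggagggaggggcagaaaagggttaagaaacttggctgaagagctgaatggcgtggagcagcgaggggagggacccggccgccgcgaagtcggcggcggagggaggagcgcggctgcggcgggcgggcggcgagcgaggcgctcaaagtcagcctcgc
*Rxra*, chr2:27676951-27677200, plus strand: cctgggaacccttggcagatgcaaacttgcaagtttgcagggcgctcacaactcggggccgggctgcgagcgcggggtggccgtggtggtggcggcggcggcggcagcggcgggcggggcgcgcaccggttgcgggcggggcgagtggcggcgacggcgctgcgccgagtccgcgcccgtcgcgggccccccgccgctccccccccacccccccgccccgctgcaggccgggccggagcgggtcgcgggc
*Rxra*, chr2:27709042-27709291, plus strand: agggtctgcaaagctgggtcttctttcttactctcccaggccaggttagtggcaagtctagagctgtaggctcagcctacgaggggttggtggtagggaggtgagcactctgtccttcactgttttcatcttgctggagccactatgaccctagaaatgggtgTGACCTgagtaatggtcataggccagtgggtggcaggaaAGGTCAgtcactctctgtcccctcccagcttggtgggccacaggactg
The first *Rxra* window held no match either. The other *Rxra* window precedes a start site farther into the gene and held 2 half-sites, AGGTCA on the gene's strand and the same letters on the opposite strand, read here as TGACCT. None of the 4 windows overlapped an annotated exon.

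Windows were found for 7 of the 8 genes, 14 windows in all, some overlapping each other, and there was none for *Nr3c1*. Matches were looked for on both strands, and the letters of the longer retinoid and ROR elements contain the half-site. The half-site AGGTCA was in 1 of the 14 windows, the *Rxra* window just described, and in 14.0% of all 32851 windows in the table. The forkhead core TGTTTAC was also in 1 of the 14, a *Rxrb* window that lies within an annotated *Rxrb* exon, against 3.17% of all windows. The other forkhead core searched, TGTTTGC, was in none of the 14 and in 4.30% of all. The ROR element, AGGTCA preceded by AANT, was in none of the 14 and in 0.177% of all. Neither the glucocorticoid element, an inverted repeat of AGAACA spaced by any 3 bases, nor the retinoid element, 2 AGGTCA half-sites spaced by any 5 bases, was in any of the 14, and each was in 0.00913% of all windows. A match of letters is a description and does not show a bound site.

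All 12 DP markers looked at were detected, the lowest at 36.8 FPKM, a read number divided by gene length and by sample depth. Reads recovered from the FPKM came to 14431589 and 13027187 for the controls and to 10365999 and 11230672 for the Foxa1/2cKO samples. *Foxa1* and *Foxa2* were listed at 0 in every sample, also without Cre, and so cannot serve as a check on genotype. A limit of 3 reads would be 0.0602 to 0.0835 FPKM for *Foxa1* and to 0.0846 to 0.117 FPKM for *Foxa2*, counting error only. The Foxa1/2cKO samples were further apart than the controls, with a median absolute difference of 0.20 against 0.08 on the log2 scale over the 10776 genes tested. For the 8 genes the difference is also given with either Foxa1/2cKO sample left out.

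In control cells the corepressor *Ncor1* had the highest level of the 8 genes and *Rora* the lowest, and all 8 passed the filter of at least 1 FPKM in at least 2 samples. The order by mean control FPKM was *Ncor1*, *Rxrb*, *Rara*, *Nr3c1*, *Nrip1*, *Ncoa1*, *Rxra* and *Rora*. FPKM is per length, so levels may be set side by side between genes. Neighbours in this order were separated by more than the range of their control samples, except that the values of *Nr3c1* lay within the range of *Nrip1*. In Foxa1/2cKO the range of *Nrip1* also took in that of *Rxrb* and overlapped those of *Rara* and *Nr3c1*.

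**Figure D1:**
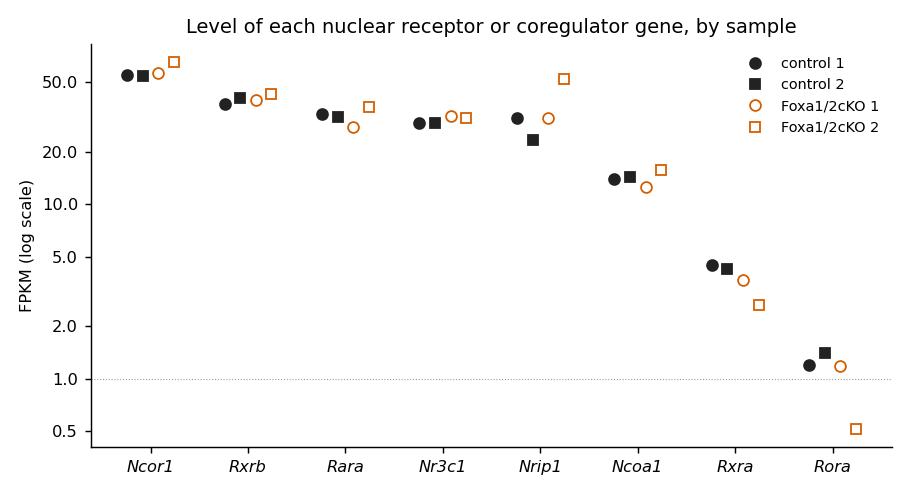
FPKM of the 8 genes in each sample on a log axis, with filled symbols for control, open symbols for Foxa1/2cKO, circles for replicate 1 and squares for replicate 2, and a dotted line at 1 FPKM. *Ncor1* lies between 54.0 and 65.0 FPKM, *Rora* between 0.519 and 1.41 FPKM, and *Nrip1* shows the widest gap between its Foxa1/2cKO samples among the genes above 10 FPKM.

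With a pseudocount of 1 *Nrip1* had the largest fitted difference of the 8 genes, and most of it lay in 1 sample. The gene lies on chromosome 16 of mm10, at 76287403 to 76373827 on the minus strand. Control 1 measured 31.2 FPKM and control 2 23.4 FPKM, while Foxa1/2cKO 1 measured 31.3 FPKM and Foxa1/2cKO 2 52.2 FPKM. Foxa1/2cKO 2 was above the other 3 samples, and Foxa1/2cKO 1 was level with control 1, although the groups did not strictly overlap. The means were 27.3 ± 5.50 FPKM in control and 41.8 ± 14.8 FPKM in Foxa1/2cKO (SD, n = 2), a ratio of 1.53. On the log2(FPKM + 1) scale, used for all fitted differences below, the difference was 0.57 with an SE of 0.28. This scale understates the change of low genes. Against the control mean, Foxa1/2cKO 1 was higher by 0.21 and Foxa1/2cKO 2 by 0.93. These are also the fitted differences when the other Foxa1/2cKO sample is left out. Counting error does not cover the gap within the genotype: the 95% Poisson interval was 29.7 to 32.9 FPKM for the 1530 reads of Foxa1/2cKO 1 and 50.3 to 54.3 FPKM for the 2625 reads of Foxa1/2cKO 2.

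*Nrip1* also varied within each genotype more than most genes. Foxa1/2cKO 2 was 1.67 times Foxa1/2cKO 1, and the absolute log2 difference of 0.72 between them was larger than that of 92.7% of the genes tested. Control 2 was 0.750 times control 1, and that difference was larger than in 96.2% of the genes tested. None of the exon bases of *Nrip1* was shared with another annotated gene.

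*Ncor1*, which encodes the NCoR scaffold that ties unliganded receptors to histone deacetylase 3, was higher in both Foxa1/2cKO samples by a small amount. It lies on chromosome 11 at 62315663 to 62457414, minus strand. It measured 55.3 and 54.0 FPKM in the controls and 56.8 and 65.0 FPKM in Foxa1/2cKO. There was no overlap of the groups, but Foxa1/2cKO 1 was close to the controls and Foxa1/2cKO 2 was the highest of the 4. The fitted difference was 0.15 with an SE of 0.10, and was 0.06 without Foxa1/2cKO 2 and 0.25 without Foxa1/2cKO 1. Its exons share 0.648% of their bases with *Pigl* and *Ttc19*.

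*Ncoa1* encodes SRC-1, a p160 coactivator that binds liganded receptors and brings in histone acetyltransferases. It lies on chromosome 12 at 4247362 to 4477206, minus strand. It measured 13.96 and 14.4 FPKM in control and 12.5 and 15.6 FPKM in Foxa1/2cKO. The control values lay between those of Foxa1/2cKO. The fitted difference was -0.02 with an SE of 0.13, and its sign depended on the sample left out, from -0.17 without Foxa1/2cKO 2 to 0.13 without Foxa1/2cKO 1. *Ncor1* exceeded *Ncoa1* by 3.96 and 3.76 times in control, by 4.55 times in Foxa1/2cKO 1 and by 4.16 times in Foxa1/2cKO 2.

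The RXR genes encode the shared partners of RAR, LXR, PPAR and other receptors. *Rxrb* was the main one in these cells, and *Rxra* the minor one and lower in both Foxa1/2cKO samples. *Rxra*, on chromosome 2 at 27676445 to 27763319, plus strand, measured 4.49 and 4.26 FPKM in control and 3.69 and 2.66 FPKM in Foxa1/2cKO. Both Foxa1/2cKO values were below both controls, and Foxa1/2cKO 2 was the lowest. The ratio of the means was 0.726 and the fitted difference -0.37 with an SE of 0.17. It was -0.19 without Foxa1/2cKO 2 and -0.56 without Foxa1/2cKO 1. The values rest on 367 and 316 reads in control and on 218 and 161 in Foxa1/2cKO.

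*Rxrb*, on chromosome 17 at 34031812 to 34038403, plus strand, measured 37.7 and 40.7 FPKM in control and 39.5 and 42.6 FPKM in Foxa1/2cKO. The groups overlapped, with a fitted difference of 0.07 and an SE of 0.09. It was 0.01 without Foxa1/2cKO 2 and 0.12 without Foxa1/2cKO 1. *Rxrg*, the third RXR gene, named after its values were seen, was under 0.1 FPKM throughout. The ratio of *Rxrb* to *Rxra* was 8.41 and 9.55 among the controls, 10.7 for Foxa1/2cKO 1 and 16.0 for Foxa1/2cKO 2. *Rxra* made up 10.6% and 9.48% of the summed RXR FPKM in control and 8.55% and 5.86% in Foxa1/2cKO.

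*Rara*, which encodes the retinoic acid receptor RARα, differed between the Foxa1/2cKO samples and not consistently from control. It lies on chromosome 11 at 98927800 to 98974942, plus strand. It measured 33.0 and 31.8 FPKM in control, 27.5 FPKM in Foxa1/2cKO 1 and 36.3 FPKM in Foxa1/2cKO 2. The controls lay between the Foxa1/2cKO values. The fitted difference was -0.03 with an SE of 0.15, and went from -0.23 without Foxa1/2cKO 2 to 0.16 without Foxa1/2cKO 1. *Rara* held 90.8% to 95.5% of the summed RAR FPKM in every sample. *Rarg* and *Rarb*, the other RAR genes, were named after their values were seen. *Rarg* measured 2.89 and 3.21 FPKM in control and 2.78 and 1.67 FPKM in Foxa1/2cKO, so the highest ratio of *Rara* to *Rarg*, 21.7, was in Foxa1/2cKO 2, against 9.91 to 11.4 in the other samples. *Rarb* was under 0.03 FPKM throughout.

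*Rora* was close to the detection filter, and its lower mean came from 1 sample. RORα is known in lymphocytes mainly for its part in innate lymphoid and Th17 cells. The gene lies on chromosome 9 at 68653404 to 69388246, plus strand. It measured 1.20 and 1.41 FPKM in control, 1.19 FPKM in Foxa1/2cKO 1 and 0.519 FPKM in Foxa1/2cKO 2. Foxa1/2cKO 1 was just under control 1, and Foxa1/2cKO 2 was well below the other samples. The 95% Poisson interval was 0.406 to 0.655 FPKM for the 71 reads of Foxa1/2cKO 2 and 1.01 to 1.39 FPKM for the 158 reads of Foxa1/2cKO 1.

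The fitted difference of *Rora* was -0.34 with an SE of 0.25 and a ratio of means of 0.653. It was -0.08 without Foxa1/2cKO 2 and -0.60 without Foxa1/2cKO 1. The pseudocount matters at this level: the difference was -0.65 with a pseudocount of 0.1, and -0.73 with limma-voom on recovered reads. Both exceed in size the difference of *Nrip1*, which was at most 0.58 in the settings with all samples. *Rorb*, named after its values were seen, was listed at 0.

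**Figure D2:**
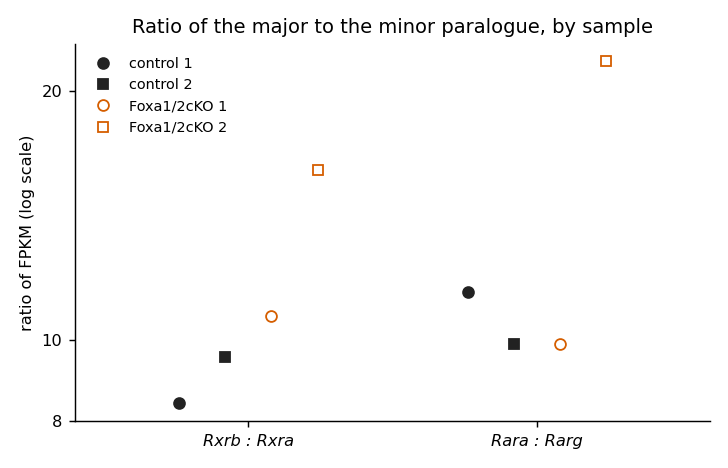
Ratio of the FPKM of the major to the minor gene of a receptor family in each sample, on a log axis, with filled symbols for control, open symbols for Foxa1/2cKO, circles for replicate 1 and squares for replicate 2. In both families Foxa1/2cKO 2 has the highest ratio, at 16.0 for *Rxrb* to *Rxra* and 21.7 for *Rara* to *Rarg*.

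*Nr3c1*, which encodes the glucocorticoid receptor, had the narrowest spread of the 8 genes within control and was slightly higher in Foxa1/2cKO. It lies on chromosome 18 at 39410545 to 39519421, minus strand. It measured 29.2 and 29.1 FPKM in control and 32.1 and 31.1 FPKM in Foxa1/2cKO. Both Foxa1/2cKO values were above both controls. The fitted difference was 0.11 with an SE of 0.08, and was 0.13 without Foxa1/2cKO 2 and 0.09 without Foxa1/2cKO 1. It was 0.08 when the values were scaled to all recovered reads.

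**Figure D3:**
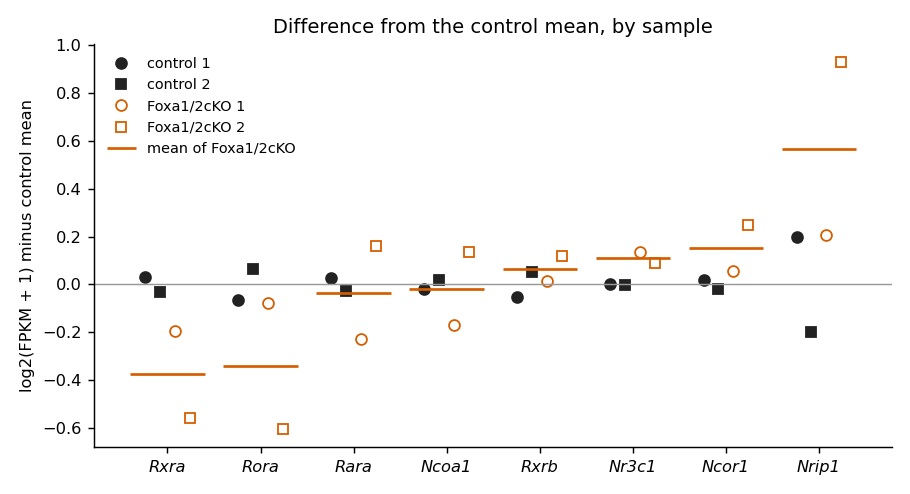
Difference from the control mean of each gene, in log2(FPKM + 1), with filled symbols for control, open symbols for Foxa1/2cKO and a bar at the Foxa1/2cKO mean. For *Nrip1* the bar at 0.57 lies between Foxa1/2cKO 1, level with control 1, and Foxa1/2cKO 2 at 0.93. *Rxra* and *Rora* have bars at -0.37 and -0.34.

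Across the 8 genes, 3 were higher in both Foxa1/2cKO samples than in both controls (*Nrip1*, *Ncor1* and *Nr3c1*), 2 were lower (*Rxra* and *Rora*) and 3 overlapped (*Rxrb*, *Rara* and *Ncoa1*). Over all genes tested, 18.9% did not overlap in the higher direction, 17.8% in the lower and 36.7% in either. The 8 genes were chosen with this contrast known, so nothing is read from their share. None of the 8 had an adjusted P-value under 0.05 in limma, where 0.00928% of genes tested (1 of 10776) did, and none had an unadjusted P-value under 0.05, where 4.55% of genes tested did (2.39% higher and 2.15% lower). With limma-voom on recovered reads none passed after adjustment, and 1, *Rxra*, had an unadjusted P-value under 0.05. The share of all genes with such a value in the limma-voom fit is not given here, so nothing is read from it. The median fitted difference was 0.02 over the 8 genes and 0.01 over all genes tested. Over the 8 genes it was -0.03 without Foxa1/2cKO 2 and 0.13 without Foxa1/2cKO 1. In bulk RNA a lower value from fewer cells of a type and one from less RNA per cell cannot be told apart.

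The calls depended on Foxa1/2cKO 1. Without it, limma called 3 of the 8 genes (*Ncor1*, *Nrip1* and *Rxra*) and 23.7% of the genes tested. In that fit the lone Foxa1/2cKO sample is assumed to vary as the controls do. The fit without Foxa1/2cKO 2 likewise leaves a lone Foxa1/2cKO sample, and there the difference of *Rara* was -0.23. Foxa1/2cKO 2 was farther from the control mean than Foxa1/2cKO 1 in 5 of the 8 genes. The summed FPKM of 7 mature single-positive markers was 330 and 362 in control, 379 for Foxa1/2cKO 1 and 248 for Foxa1/2cKO 2, which was the lowest sample in 6 of the 7. The summed FPKM of the 12 DP markers was 5102 and 5037 in control, 4756 for Foxa1/2cKO 1 and 6346 for Foxa1/2cKO 2, which was the highest sample in 9 of the 12. Among them *Klf2* measured 37.0, 43.0, 43.4 and 17.0 FPKM in the same order, and *Il7r* 33.7, 44.1, 41.5 and 13.4 FPKM. Both were named after their values were seen. The part of the mature and DP markers in the *Nrip1*, *Rora* and *Rxra* values was not tested.

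**Figure D4:**
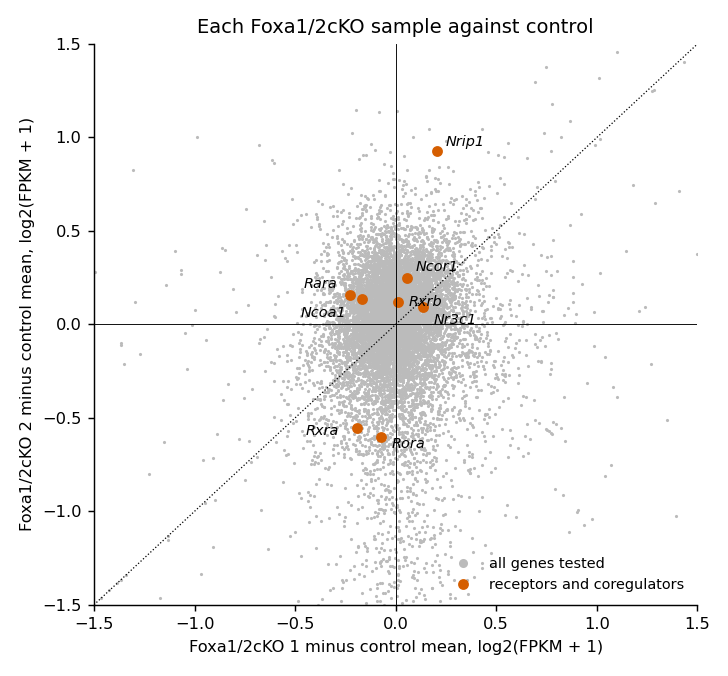
Difference of Foxa1/2cKO 1 (horizontal) and Foxa1/2cKO 2 (vertical) from the control mean, in log2(FPKM + 1), for all genes tested in grey and the 8 receptors and coregulators in orange, with a dotted line of equal difference and 68 of the 10776 genes outside the axes. *Nrip1* lies highest of the 8, at 0.93 in Foxa1/2cKO 2, and *Rxra* is low in both samples.

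Markers of other cell types were low or mixed. The 6 B cell markers summed to 75.6 and 50.3 FPKM in control and to 104 and 54.0 FPKM in Foxa1/2cKO, with *Igll1* at 0. The 7 myeloid markers summed to 111 and 87.7 FPKM in control and to 109 and 130 FPKM in Foxa1/2cKO. *Cst3*, named after its values were seen, carried the highest sum, at 116 FPKM in Foxa1/2cKO 2, which was the lowest sample in 4 of the 7 markers and the highest in 1. The 6 erythroid markers summed to 0.608 to 1.12 FPKM in control and 1.01 to 2.67 FPKM in Foxa1/2cKO, with the 4 globin genes at 0. The 7 thymic epithelial markers summed to 7.94 to 8.48 FPKM in control and 9.15 to 11.1 FPKM in Foxa1/2cKO. Neither the B cell nor the myeloid sums separated the genotypes. The thymic epithelial sums were higher in both Foxa1/2cKO samples than in both controls, with only 2 of the 7 genes past the filter. The part of any of these markers in the receptor values was not tested.

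The 5 genes whose values were most like those of *Nrip1* over the 4 samples, by Euclidean distance between log2(FPKM + 1) values centred on the control mean of each gene, were *Dennd4c* (distance 0.162), *AA467197* (0.165), *Arap2* (0.189), *Kcna3* (0.225) and *S100a11* (0.229). *Arap2*, which encodes an Arf GTPase-activating protein, measured 35.4 and 30.3 FPKM in control and 34.9 and 66.7 FPKM in Foxa1/2cKO. *Kcna3*, which encodes the potassium channel Kv1.3 of T cells, measured 38.4 and 32.9 FPKM in control and 43.0 and 60.6 FPKM in Foxa1/2cKO. *Dennd4c* measured 10.4 and 8.99 FPKM in control and 11.7 and 20.1 FPKM in Foxa1/2cKO. As in *Nrip1*, Foxa1/2cKO 2 was highest and control 2 lowest in each of these 3. *AA467197* rested on only 17 to 40 reads a sample.

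The surrounding pathway genes were taken from lists of receptors, cofactors and targets. No listed gene had an adjusted P-value under 0.05, and 4 had an unadjusted P-value under 0.05: *Stip1* and *Dusp1*, lower in Foxa1/2cKO, and *Itga4* and *Abca1*, higher. Their adjusted P-value in limma was 0.863 each. In that order they were 1 of 8 tested chaperone genes, 1 of 16 glucocorticoid targets, 1 of 5 retinoid targets and 1 of 11 LXR and RXR targets. The other lists held none. Over all genes tested 4.55% had an unadjusted P-value under 0.05 in limma, so nothing is read from this count. Counts below are of genes tested, and the share that did not overlap over all genes was 18.9% higher and 17.8% lower.

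Of 44 other nuclear receptor genes 14 were tested, and 13 were listed at 0 in every sample, so 19 of the 49 nuclear receptor genes counted here passed the filter. The most abundant was *Nr4a1*, the TCR-induced orphan receptor, at 206 and 183 FPKM in control and 183 and 217 FPKM in Foxa1/2cKO. *Nr1h2*, which encodes LXRβ, measured 70.1 and 68.3 FPKM in control and 64.5 and 85.9 FPKM in Foxa1/2cKO. Both overlapped between the genotypes. *Nr2c2*, *Nr4a3*, *Esrra* and *Ppard* lay between 16.6 and 32.4 FPKM, with fitted differences of 0.10, 0.06, -0.03 and -0.01. In this list 2 genes did not overlap in the higher direction and 3 in the lower, and the median was 0.05.

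The 12 tested genes of the NCoR complex had a median of -0.03, with 1 not overlapping in the higher direction and 4 in the lower. *Hdac7*, a class IIa deacetylase abundant in DP cells, measured 239 and 235 FPKM in control and 205 and 274 FPKM in Foxa1/2cKO, which overlapped. *Hdac1* measured 81.9 and 78.7 FPKM in control and 73.9 and 76.1 FPKM in Foxa1/2cKO, and *Hdac2* had a difference of 0.05.

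Of 6 repressor partners of Nrip1 4 were tested, and the fitted differences of all 4 were above 0, 2 of them without overlap, with a median of 0.10. Over all genes, 5523 of the 10776 tested had a higher mean. The difference of *Lcorl*, named after its values were seen, was only 0.003. It measured 1.34 and 1.44 FPKM in control and 1.64 and 1.17 FPKM in Foxa1/2cKO, which overlapped. *Ctbp1*, the corepressor that Nrip1 binds through its repression domains, measured 138 and 138 FPKM in control and 141 and 156 FPKM in Foxa1/2cKO. *Lcor* measured 2.15 and 2.07 FPKM in control and 2.76 and 2.49 FPKM in Foxa1/2cKO, and *Hdac5* 28.5 and 25.6 FPKM in control and 24.9 and 33.9 FPKM in Foxa1/2cKO. The ratio of *Nrip1* to *Ctbp1* was 0.225 and 0.169 in control, 0.222 for Foxa1/2cKO 1 and 0.335 for Foxa1/2cKO 2. *Ctbp2*, named after its values were seen, was under 0.2 FPKM in every sample.

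Of 19 receptor coactivators 18 were tested, with 6 not overlapping in the higher direction, 5 in the lower and a median of 0.07. *Smarca4*, the chromatin remodelling ATPase BRG1, measured 109 and 113 FPKM in control and 103 and 101 FPKM in Foxa1/2cKO. *Prmt1*, an arginine methyltransferase, measured 78.4 and 85.1 FPKM in control and 66.8 and 75.6 FPKM in Foxa1/2cKO, both lower. *Ncoa5* had a difference of -0.01. The p160 paralogues of *Ncoa1*, named after their values were seen, had differences of 0.12 for *Ncoa2* and 0.12 for *Ncoa3*, each smaller than 2 SE.

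All 8 genes of the chaperones that fold the glucocorticoid receptor were tested, and 7 had lower means in Foxa1/2cKO, 3 of them without overlap. Over all genes, 5253 of the 10776 tested had a lower mean. The median was -0.23, and was -0.12 in Foxa1/2cKO 1 and -0.37 in Foxa1/2cKO 2. *Stip1*, the co-chaperone HOP that links Hsp70 to Hsp90, measured 94.9 and 95.6 FPKM in control and 75.5 and 83.8 FPKM in Foxa1/2cKO, a difference of -0.26 with an SE of 0.09. *Hsp90ab1*, the constitutive Hsp90, measured 652 and 673 FPKM in control and 615 and 477 FPKM in Foxa1/2cKO, a difference of -0.29 with an SE of 0.15 that was -0.11 without Foxa1/2cKO 2 and -0.47 without Foxa1/2cKO 1. *Hspa8* measured 368 and 287 FPKM in control and 298 and 308 FPKM in Foxa1/2cKO, which overlapped. These chaperones serve many proteins besides the receptor.

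Of 20 glucocorticoid target genes 16 were tested, with 2 not overlapping in the higher direction, 3 in the lower and a median of 0.02. *Dusp1*, a phosphatase of MAP kinases, measured 15.6 and 15.0 FPKM in control and 12.7 and 10.3 FPKM in Foxa1/2cKO, a difference of -0.39 with an SE of 0.13 that was -0.25 without Foxa1/2cKO 2. *Tsc22d3*, which encodes the glucocorticoid-induced leucine zipper protein GILZ, measured 19.3 and 18.4 FPKM in control and 21.5 and 27.4 FPKM in Foxa1/2cKO, a difference of 0.35 with an SE of 0.14 that was 0.18 without Foxa1/2cKO 2. *Fkbp5*, another textbook target, measured 65.3 and 70.6 FPKM in control and 67.0 and 49.7 FPKM in Foxa1/2cKO. *Tsc22d3* and *Fkbp5* were named after their values were seen and had differences of opposite sign. The most abundant targets, *Txnip*, *Nfkbia* and *Cxcr4*, all overlapped, with differences of -0.01, 0.02 and 0.32.

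Of 18 genes of the ROR and clock loop 14 were tested, and 5 were higher without overlap against 1 lower, with a median of 0.08. *Bcl2l1*, which encodes the survival protein Bcl-xL, measured 53.7 and 56.8 FPKM in control and 57.5 and 60.7 FPKM in Foxa1/2cKO, a difference of 0.10 with an SE of 0.09. *Cry1*, a clock repressor, measured 42.5 and 39.3 FPKM in control and 40.9 and 56.8 FPKM in Foxa1/2cKO, which overlapped.

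Retinoid genes were thinly expressed: 5 of 18 genes of retinoid metabolism and binding and 5 of 15 retinoid targets were tested. In metabolism the median was 0.02, and *Dhrs3*, a retinaldehyde reductase, measured 39.9 and 46.1 FPKM in control and 41.1 and 40.2 FPKM in Foxa1/2cKO. Among the targets the median was 0.00. *Itga4*, the integrin α4 subunit induced by retinoic acid in T cells, measured 22.0 and 22.5 FPKM in control and 31.3 and 30.1 FPKM in Foxa1/2cKO, a difference of 0.45 with an SE of 0.08. Both Foxa1/2cKO samples were well above both controls. *Ccr9*, the gut-homing chemokine receptor, overlapped, at 334 and 317 FPKM in control and 247 and 490 FPKM in Foxa1/2cKO. *Egr1* measured 167 and 137 FPKM in control and 117 and 196 FPKM in Foxa1/2cKO.

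Of 15 target genes of the LXR and RXR heterodimer 11 were tested, with 3 higher without overlap, none lower and a median of 0.05. *Abca1*, the cholesterol exporter, measured 4.38 and 3.98 FPKM in control and 6.64 and 5.89 FPKM in Foxa1/2cKO, a difference of 0.49 with an SE of 0.12. Both Foxa1/2cKO samples were above both controls. *Scd2* and *Srebf1*, both genes of lipid synthesis, had differences of 0.05 and 0.12.

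**Figure D5:**
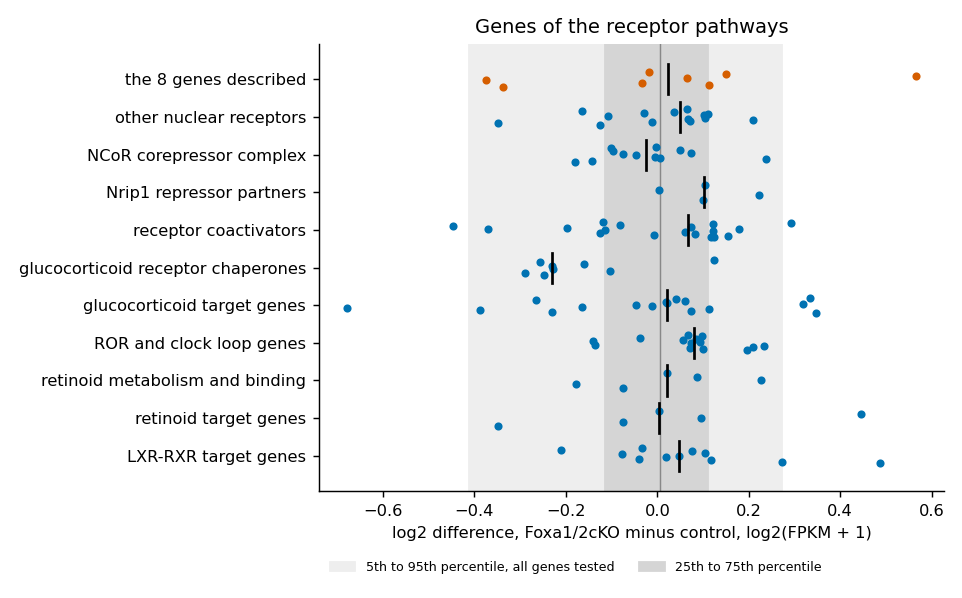
Log2 difference (Foxa1/2cKO minus control, on the log2(FPKM + 1) scale) of the 8 genes described and of each tested gene of the pathway lists, as points with the list median as a bar, over grey bands of the percentiles of all genes tested. The chaperone list has the lowest median, at -0.23, and the central band of all genes runs from -0.11 to 0.11.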

How the data were processed

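RNA from CD69+DP thymocytes was sequenced in 2 control and 2 Foxa1/2cKO samples. The authors aligned reads to mm10 with RefSeq genes through BaseSpace and counted them with HTSeq, and their notes name TopHat, Picard and DESeq2. The table deposited by the authors holds FPKM, 1 column a sample, already scaled between samples, and the tool that made them is not given in the sources used here.

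The steps between FPKM values gave whole reads for 100% of the 16069 genes above 0, within 0.005 reads, or a looser limit for a few of the most abundant genes. Differences were fitted with limma 3.58.1 in R 4.3.3 on log2(FPKM + 1), with a mean-variance trend, genes of at least 1 FPKM in at least 2 samples, Benjamini-Hochberg adjustment at 0.05, and 2 residual and 2.69 prior degrees of freedom. The fit was also run on simulated data with equal spread in both groups, unlike the data here. That run therefore does not show the error rate of the fit in these data. Tables and figures used Python 3.11.15, and promoters came from RefSeq (GRCm38.p6). Protein sequences were not used here, so a planned comparison of protein motifs was not made.

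The members and gene lists were chosen with earlier results of these data known. Named genes are the 8 members, the 3 most abundant tested genes of each list, those with an unadjusted P-value under 0.05 and no overlap, other nuclear receptors of at least 10 FPKM and the 5 genes most like *Nrip1*. Others are said to be chosen after their values were seen. The results of 3 genes are not reported here. Intervals cover counting error only. Alternatives were a pseudocount of 0.1, no filter, at least 1 FPKM in all 4 samples, upper-quartile scaling, scaling to all recovered reads, limma-voom, a replicate block and leaving out each sample.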

Additional observations from a re-analysis of the deposited data

How the results depend on the processing

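The directions of *Nrip1*, *Ncor1*, *Nr3c1*, *Rxrb*, *Rxra* and *Rora* were the same under every alternative that gave a value, and *Rara* and *Ncoa1* changed sign with 1 sample left out. *Rora* was not tested with at least 1 FPKM in all 4 samples. The number of genes with an adjusted P-value under 0.05 was 1, and was 0 with a pseudocount of 0.1, with no filter on low values, with at least 1 FPKM in all 4 samples, with upper-quartile scaling, with scaling to all recovered reads and with limma-voom. With 1 sample left out it ranged from 0 to 2559. It was 19 without Foxa1/2cKO 2 and 2559 without Foxa1/2cKO 1. With 1 sample left out, medians ranged from -0.03 to 0.13 for the 8 genes, from -0.06 to 0.10 for glucocorticoid targets, from -0.04 to 0.04 for retinoid metabolism, from -0.076 to 0.10 for other nuclear receptors, from 0.0068 to 0.14 for coactivators, from -0.37 to -0.12 for chaperones, from -0.10 to 0.38 for retinoid targets and from 0.027 to 0.14 for LXR and RXR targets. Without a filter 439 genes, against 232, were lower with an unadjusted P-value under 0.05. Upper-quartile scaling shifted the median of all genes by -0.02 and scaling to all reads by -0.03. The cause of these changes was not tested. The fits that leave one out also rest on fewer samples, and the part of this was not tested either.

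The labels link same-numbered samples by the number only, and whether they shared a sort is not given. The correlation of their deviations was -0.0587 over 10776 genes, which rests on a single difference per genotype and cannot decide this. With the replicate block 1 gene was called, and 165 genes were higher and 213 lower at an unadjusted P-value under 0.05, against 258 and 232 without it. The block left the median of the 8 genes at 0.02. There were only 2 samples per group, and *Rora* and *Rxra* rest on the fewest reads of the 8 genes, 71 to 367 a sample. Counting error did not cover the gap between the Foxa1/2cKO samples in either gene. For *Rxra* the 95% Poisson interval was 3.22 to 4.22 FPKM in Foxa1/2cKO 1 and 2.26 to 3.10 FPKM in Foxa1/2cKO 2.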
